A study of Mus musculus with 18 samples.

Results

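The genes of fatty acid synthesis, elongation and desaturation were examined in ileum cells of 18 mice on one-colour Agilent arrays, 1 array per mouse. The set comprised 10 genes, *Acly*, *Acss2*, *Acaca*, *Acacb*, *Fasn*, *Elovl5*, *Elovl6*, *Fads1*, *Fads2* and *Thrsp*, which were taken by name: every non-control probe whose gene name on the array equalled one of them was collected, and each gene was represented by its brightest probe. They had 31 probes in all, of which 23 passed the filter on dim probes, namely to be well above background in 5 or more of the 6 arrays of some group. Of the 10 genes, 9 were tested in this way, among 21542 tested gene names of 37074 on the array. *Thrsp*, a small nuclear protein that follows lipogenic genes in liver and fat, was the exception. Its 2 probes were well above background on 0 of 18 arrays, and it was not tested.

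The mice formed 3 groups of 6, all carrying floxed *Ppargc1a* alleles, the gene of the transcriptional coactivator Pgc1a. Floxed mice (iPGC1afl/fl) without Cre received chow or a milk fat diet that supplies 42% of its energy as fat and 0.2% cholesterol, named HFD in the labels and Western diet (WD) in the study and hereafter. The third group, labelled iPGC1a-/- HFD, received the same WD and carried a Cre recombinase driven by the Villin promoter, which is active in intestinal epithelium and there removes exons of *Ppargc1a*. Feeding began at 8 weeks of age and lasted 8 weeks, and the mice, on a C57BL6/J background, were killed at ZT 3. The study's methods give an overnight fast and the series text calls the mice randomly fasted, so the length of the fast is not settled. iPGC1a-/- mice on chow were not analysed here. Cells were detached from the opened ileum with a chelating buffer and RNA was extracted from all of them, 1 sample per mouse. Such bulk RNA cannot tell fewer cells of a type from less RNA per cell. Nothing in the labels ties samples to litters or cages.

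Each of 3 slides held 2 arrays of every group. Between 56.3% and 62.3% of spots were well above background, and each array correlated with the mean of the other arrays of its group at r = 0.9926 to 0.9975 over probes, so that no array stood apart. All 8 enterocyte markers examined, among them *Vil1*, *Epcam* and the ileal genes *Fabp6* and *Slc10a2*, passed the filter. The 2 tested probes of *Ppargc1a* were not lower, and both averaged higher, in the arrays labelled iPGC1a-/-. The brighter one averaged 11.67 ± 0.26 on the log2 scale there and 11.38 ± 0.07 in floxed mice on WD (SD, n = 6 each; limma adjusted p = 0.573). Whether either probe lies in the deleted exons was not determined, so they do not check the labels, and genotype below means the label. The study itself reports the deletion by RT-qPCR of *Ppargc1a* along the intestine, without saying whether in these same mice.

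The pathway converts surplus carbon into fat. Citrate leaves the mitochondrion and is split into acetyl-CoA by ATP citrate lyase (*Acly*), while *Acss2* makes acetyl-CoA from acetate. The acetyl-CoA carboxylases *Acaca* and *Acacb* form malonyl-CoA, the former mainly for synthesis in the cytosol, the latter at the mitochondrial surface, where malonyl-CoA restrains fatty acid oxidation. Fatty acid synthase (*Fasn*) builds palmitate, which *Elovl6* lengthens, and *Elovl5*, *Fads1* and *Fads2* lengthen and desaturate polyunsaturated fatty acids. In liver these genes are controlled by the sterol-regulated factors SREBP1c (*Srebf1*) and SREBP2 (*Srebf2*), by the oxysterol receptor LXR (*Nr1h3*, *Nr1h2*) and by the carbohydrate-responsive factor ChREBP (*Mlxipl*).

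The first comparison asked how WD changed these genes in floxed mice. *Fasn* and *Acacb* fell on WD, by 1.58-fold and 2.06-fold, and no member rose by the same measure, an adjusted p of 0.05 or lower with a fold change above 1.5. Thus 2 of 9 genes were called lower and 0 higher, against 5.2% lower and 3.22% higher among all gene names tested (1121 and 694 genes, so that 38.2% of calls were higher, or 48.5% after scaling to the 75th percentile). With the adjusted p alone, *Acly* was also lower and *Elovl5* was higher, which makes 3 lower and 1 higher, against 14.2% and 10.4% of all gene names. *Acaca*, *Acss2*, *Fads1* and *Fads2* lay within 0.12 of 0 on the log2 scale, and *Elovl6* was lower without passing the adjustment. The members' median log2 difference was -0.12, and that of all gene names was 0.003.

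**Figure D1:**
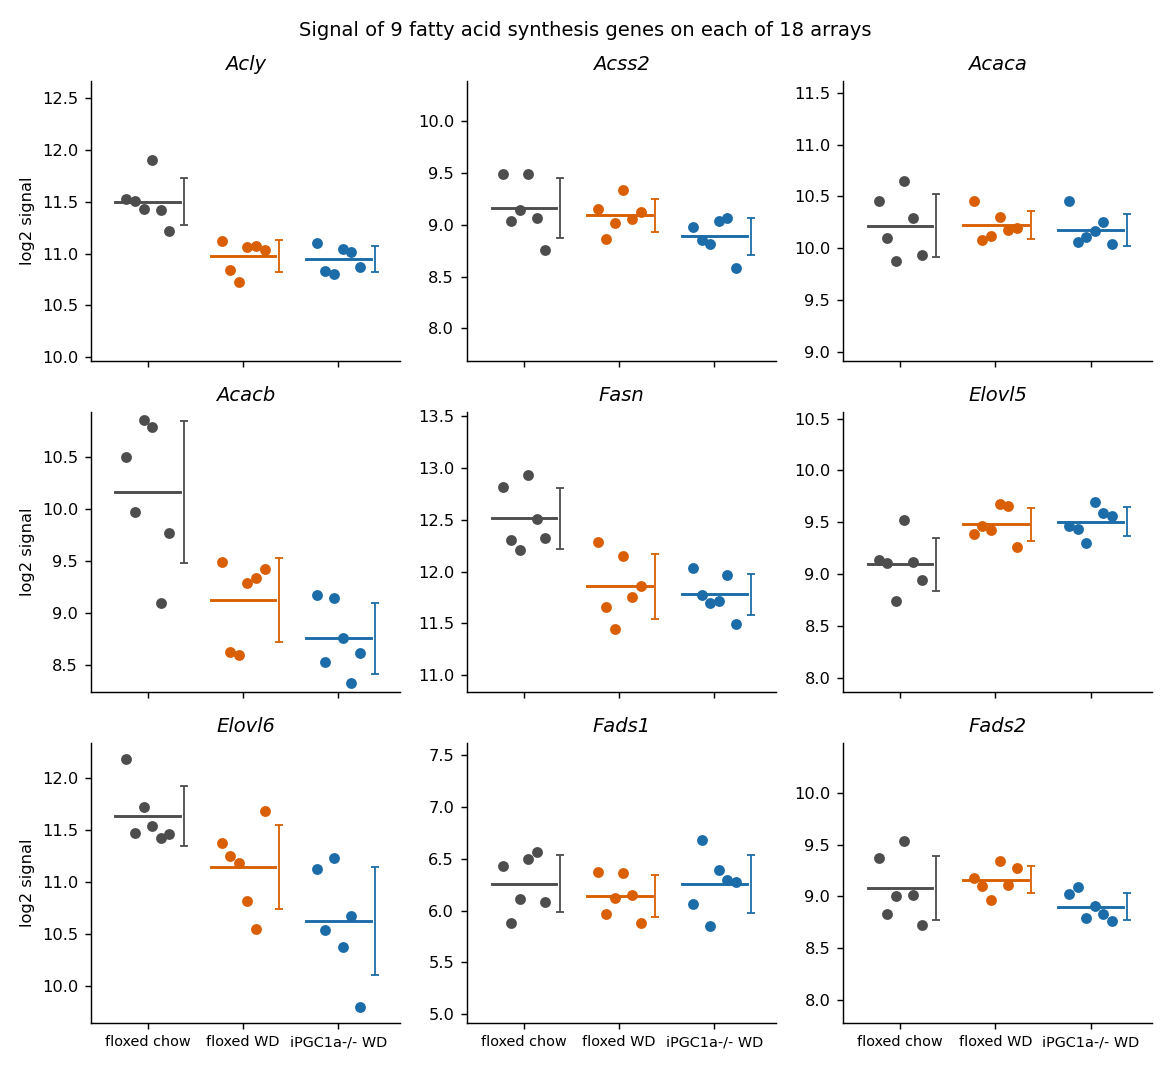
Normalised log2 signal of the 9 tested genes on each of the 18 arrays, in 1 panel per gene with axes of equal span. Points are mice, placed by replicate number within a group, horizontal lines are group means and bars beside them are SDs (n = 6). The chow mice lie above both WD groups for *Acly* without overlap, *Fasn* and *Acacb* overlap between diets by 1 or more mice, and *Elovl5* runs the other way.

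Among the enzymes that supply acetyl-CoA, *Acly* separated the diets completely. Its lowest, median and highest log2 signals were 11.22, 11.46 and 11.90 in floxed mice on chow and 10.73, 11.05 and 11.12 in floxed mice on WD. Every chow mouse was therefore above every WD mouse, which held for 1 of the 9 genes and for 10.4% of all gene names. The log2 difference was -0.52 (SE 0.10, limma adjusted p = 0.000781), a fall of 1.44-fold that passed the test on p but lay under the fold of 1.5. The exact permutation test over the mice gave p = 0.00216, the smallest value possible for 6 against 6. *Acss2* ranged from 8.75 to 9.49 on chow and from 8.87 to 9.34 on WD, so the WD mice lay inside the chow range. Its difference was -0.07 (95% interval -0.32 to 0.18).

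*Fasn*, the synthase itself, had log2 signals of 12.21, 12.42 and 12.93 (lowest, median, highest) on chow and 11.45, 11.80 and 12.29 on WD. The groups overlapped narrowly, because the highest WD mouse lay above the lowest chow mouse. The difference was -0.66 (SE 0.15, limma adjusted p = 0.00261; two-sided exact permutation p = 0.00433). Within the 3 slides it was -0.81, -0.55 and -0.61. The fold change ended under 1.5 without floxed WD replicate 3 and without floxed chow replicate 4 (-0.57 each), and under both scalings to the 75th percentile (-0.55 and -0.57).

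The carboxylases gave different values. *Acaca* averaged 10.22 ± 0.30 on chow and 10.22 ± 0.14 on WD (SD, n = 6), a difference of 0.00 with a 95% interval from -0.24 to 0.25. *Acacb* had log2 signals of 9.10, 10.24 and 10.86 on chow and 8.60, 9.31 and 9.50 on WD. The chow mice were widely spread, and the lowest of them lay among the WD mice. Its difference was -1.04 (SE 0.25, limma adjusted p = 0.00552; exact permutation p = 0.013). It measured -1.70, -0.39 and -1.03 within the 3 slides, negative in each but uneven in size. The call also rested on 1 probe: the 2 other tested probes of *Acacb* differed by 0.23 and -0.02, and the mean of its probes by -0.28 (adjusted p = 0.12).

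The elongases had opposite signs. *Elovl5* had log2 signals of 8.74, 9.11 and 9.52 on chow and 9.26, 9.45 and 9.67 on WD, so that 5 of 6 chow mice lay below every WD mouse. The difference was 0.39 (SE 0.11, limma adjusted p = 0.0142; exact permutation p = 0.013), or 1.31-fold, under the fold asked for. *Elovl6* had 11.42, 11.50 and 12.18 on chow and 10.55, 11.21 and 11.69 on WD, with overlap. Its difference was -0.49 (SE 0.21, limma adjusted p = 0.106; exact permutation p = 0.0303), and within slides it ran from -1.05 to -0.17. The desaturases showed little: *Fads1*, a dim probe, differed by -0.12 (95% interval -0.40 to 0.17) and *Fads2* by 0.08 (-0.16 to 0.33). In all, 18 exact tests were made over the 9 genes and both comparisons, and their p-values are not adjusted.

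**Figure D2:**
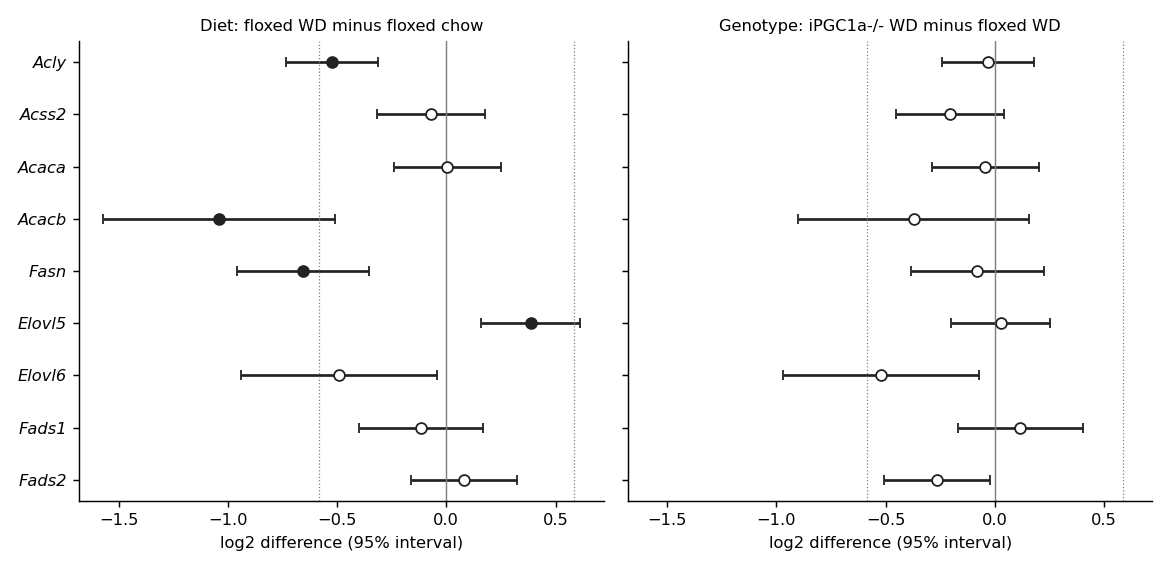
Log2 differences of the 9 tested genes with 95% intervals from limma, by diet (left, floxed WD minus floxed chow) and by genotype (right, iPGC1a-/- WD minus floxed WD). Filled points have an adjusted p of 0.05 or lower and dotted lines mark a fold of 1.5. *Acly*, *Acacb*, *Fasn* and *Elovl5* are filled on the left, and no point is filled on the right.

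Where several probes of a gene passed the filter, they were compared. The array design places its probes on mm9, and whether they lie in coding exons or UTRs was not determined. *Acacb* was read by a probe at chr5:114700702-114700761, while its probes without a diet difference lay upstream along the plus strand, at chr5:114667674-114667733 and across chr5:114596822-114615564. The second probe of *Acly* (chr11:100365518-100365577), much dimmer than the main one (chr11:100337674-100337733), differed by -0.18. *Fasn*, *Elovl5* and *Elovl6* had 1 tested probe each, at chr11:120668460-120668519, chr9:77832205-77832264 and chr3:129337756-129337815. Neither the 4 tested probes of *Acaca*, the 4 of *Acss2*, the 2 of *Fads1* nor the 5 of *Fads2* held a call in either comparison.

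**Figure D3:**
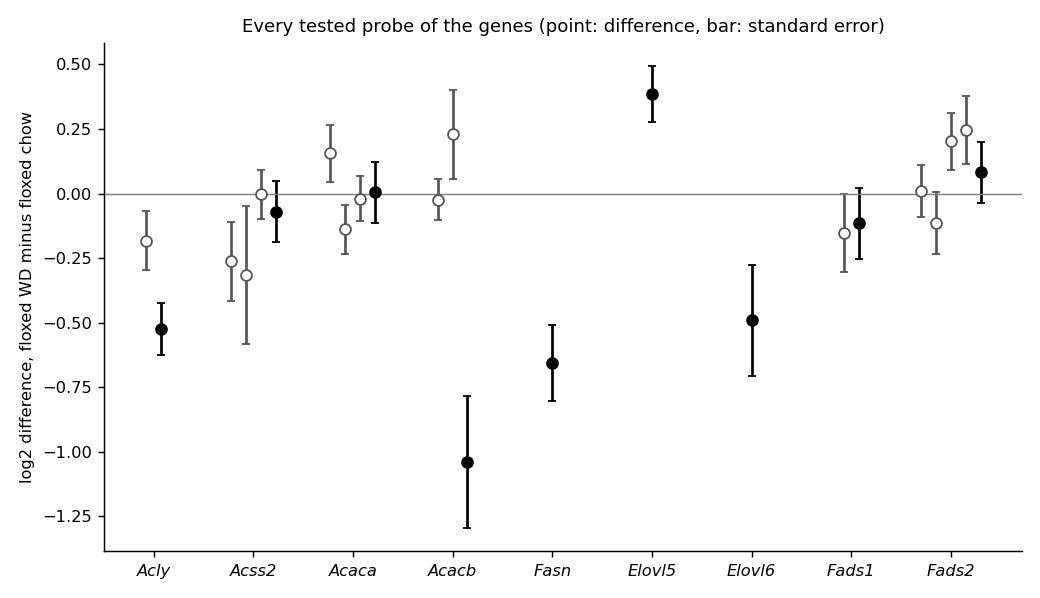
Diet difference (log2, floxed WD minus floxed chow) of each of the 23 tested probes, with standard errors from limma. Filled points are the brightest probe of a gene and open points its other probes, ordered from dim to bright within a gene. The brightest *Acacb* probe lies at -1.04 and its other probes near 0, and the dimmer *Acly* probe differs less than the brighter one.

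The 4 genes past the adjusted p have start sites in the RefSeq table of GRCm38.p6, and the 250 bases before each listed start are shown, since these are the members that differed by diet. Capitals mark matches on either strand to any of 4 motifs. The sterol regulatory element was searched as TCACNCCAC and the E box, a site of basic helix-loop-helix factors, as CACGTG. The CCAAT box, bound by NF-Y, was searched by the letters of its name, and the GC box, bound by Sp1 and its relatives, as GGGCGG.
Fasn (chr11:120824548-120824797, minus strand): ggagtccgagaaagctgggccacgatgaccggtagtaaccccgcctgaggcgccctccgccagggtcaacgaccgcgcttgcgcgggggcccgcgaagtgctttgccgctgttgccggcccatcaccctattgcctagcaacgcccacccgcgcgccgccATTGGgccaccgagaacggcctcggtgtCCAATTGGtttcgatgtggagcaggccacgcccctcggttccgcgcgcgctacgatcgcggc
Acly (chr11:100528001-100528250, minus strand): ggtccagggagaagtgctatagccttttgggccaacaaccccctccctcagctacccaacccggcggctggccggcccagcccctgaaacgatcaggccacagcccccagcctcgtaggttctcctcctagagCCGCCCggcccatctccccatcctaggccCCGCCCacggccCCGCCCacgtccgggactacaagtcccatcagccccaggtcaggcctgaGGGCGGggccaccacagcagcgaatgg
Acacb (chr5:114165268-114165517, plus strand): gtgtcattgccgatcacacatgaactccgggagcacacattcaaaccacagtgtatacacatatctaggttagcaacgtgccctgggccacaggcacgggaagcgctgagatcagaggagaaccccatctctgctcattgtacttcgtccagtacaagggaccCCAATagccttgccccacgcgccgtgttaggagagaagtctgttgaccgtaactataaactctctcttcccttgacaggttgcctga
Elovl5 (chr9:77917115-77917364, plus strand): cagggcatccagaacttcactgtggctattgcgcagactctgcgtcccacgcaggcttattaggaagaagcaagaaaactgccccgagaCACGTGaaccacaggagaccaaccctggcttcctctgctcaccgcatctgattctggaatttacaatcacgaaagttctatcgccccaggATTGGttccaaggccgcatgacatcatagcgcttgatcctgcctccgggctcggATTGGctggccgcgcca

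*Fasn* held 3 CCAAT boxes, at 90 to 86, 62 to 58 and 59 to 55 bases before the start, the nearer pair overlapping on opposite strands. *Acly* held 4 GC boxes between 117 and 22 bases before the start. *Acacb* held 1 CCAAT box, and *Elovl5*, the gene that was higher on WD, held an E box 161 to 156 bases before the start and 2 CCAAT boxes. For *Acaca*, *Acacb* and *Fasn* the listed start lies 65803, 19197 and 619 bases inside the annotated gene, so a start further upstream is also annotated and was not searched. Across the 9 members with an entry (*Fads1* has none), the sterol element occurred in 0 windows, the E box in 1, the CCAAT box in 5 and the GC box in 3. Among 32851 windows of the same length in the table, the shares were 1.05%, 6.02%, 33.8% and 32.7%. Among 14 windows of known SREBP2 targets, a list counted below, the sterol element as searched occurred in 1, that of *Hmgcs1*. Its absence from the members' windows therefore does not show that they lack such an element. A match in these letters is a description of the window and does not show that a factor binds there.

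Of 15 regulators, of the pathway examined next, 2 were called higher and 2 lower on WD. *Srebf1* rose by 1.54 on the log2 scale (SE 0.12, adjusted p = 6.81e-08), from 11.71 ± 0.25 to 13.25 ± 0.10 (SD, n = 6), with no overlap between groups, and *Nr1h3*, which encodes LXRa, rose by 0.67 (adjusted p = 3.37e-06). *Insig1* and *Insig2*, whose proteins hold the SREBP precursors in the endoplasmic reticulum, fell (-0.93 and -0.68). *Srebf2* (-0.36, adjusted p = 0.103), *Scap*, the escort of the SREBPs (-0.18), *Mlxipl* (-0.22) and *Nr1h2* (-0.03) were not called. The probe of *Srebf1* was not assigned to one of its transcripts, so SREBP1a and SREBP1c were not separated.

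Neighbouring reactions were counted in the same way. For acetyl-CoA and NADPH supply, 3 of 9 genes were called higher and 1 lower. *Me1*, malic enzyme, a source of cytosolic NADPH, rose by 1.94 (SE 0.24), the NADP-dependent isocitrate dehydrogenase *Idh1* by 1.18 and the mitochondrial acetyl-CoA synthetase *Acss1* by 1.04, whereas *Aacs*, which activates acetoacetate for lipid synthesis, fell by 1.08. Of 13 other tested genes of the elongation cycle and desaturation, 2 were higher and 1 lower: the stearoyl-CoA desaturases *Scd1* and *Scd2* rose by 6.14 and 2.54, and *Hsd17b12*, the ketoacyl reductase of elongation, fell by 0.62. *Elovl2*, *Elovl3*, *Elovl4* and *Hacd4* did not pass the filter. Of 8 genes of mitochondrial fatty acid synthesis and malonyl-CoA handling, 0 were called.

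Known targets of the controlling factors were counted for comparison. Among SREBP2 targets, mostly genes of cholesterol synthesis, 15 of 19 tested were called lower and 0 higher, with a median log2 difference of -1.12. The differences were -2.55 for *Sqle*, -2.07 for *Fdft1* and -1.66 for *Hmgcs1*. Among LXR targets 7 of 8 were called higher and 0 lower, with a median of 1.03; *Abca1*, the cholesterol exporter, rose by 1.84 and *Mylip*, a ubiquitin ligase, by 1.13. *Srebf1* and *Scd1* belong to this list too. The study also names *Fasn* as an LXR target, but it was counted here with the members and not in this list. *Fasn* (-0.66), *Acly* (-0.52) and the called probe of *Acacb* (-1.04) had the sign of the SREBP2 targets. *Elovl5* (0.39) had that of *Srebf1* and the LXR targets, and the remaining tested members did not pass the adjusted p. The changes of *Fasn*, *Acly* and *Elovl5* were under the median of either list in size. Whether any of these factors had a part in them was not tested. The difference between the members and these lists was not tested. The SREBP2 and LXR counts were the same under each of the 5 other scalings tried.

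**Figure D4:**
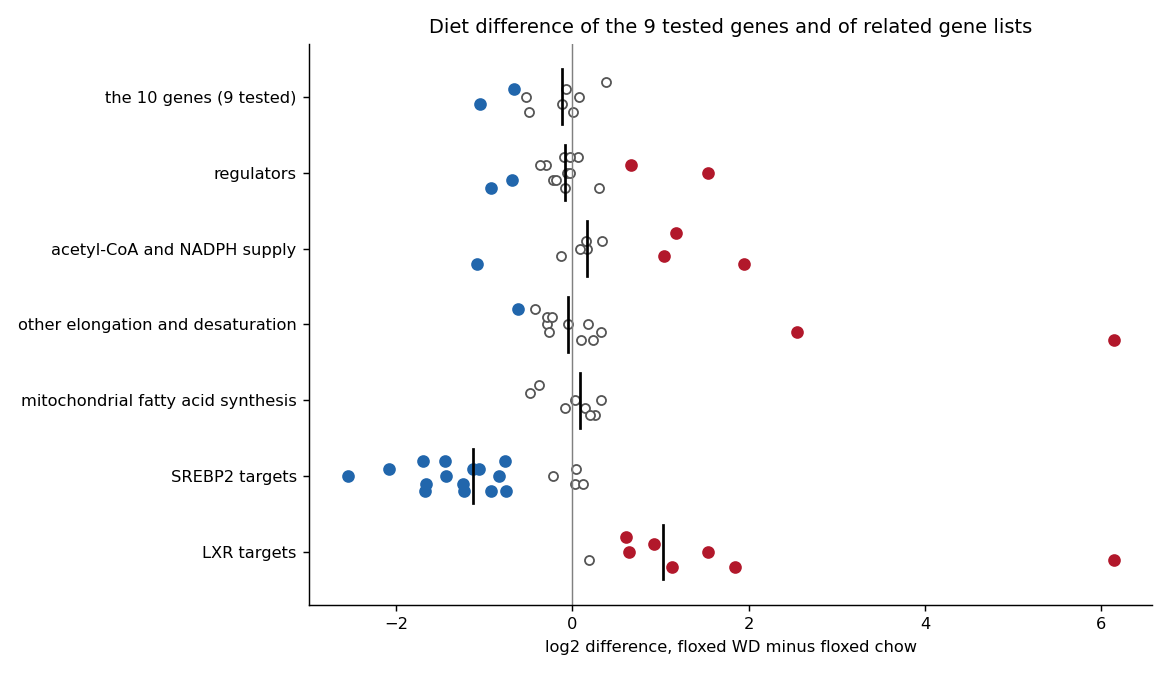
Diet difference (log2, floxed WD minus floxed chow) of the 9 tested members and of genes in 6 related lists, 1 point per gene. Red and blue points were called higher and lower (adjusted p of 0.05 or lower and fold above 1.5), open points were not called, and black bars are list medians. SREBP2 targets lie on the left with a median of -1.12, LXR targets on the right with a median of 1.03, and the members in between; *Scd1* and *Srebf1* each appear in a pair of lists.

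Markers of other cells moved with the diet as well. The 4 tested T cell markers were all called lower on WD, and their summed linear signal was 11590 to 42410 in chow mice and 4475 to 8496 in floxed mice on WD. Of 4 B cell markers 3 were called lower (889 to 2476 against 164.5 to 737.4), of 6 goblet markers 5 (321100 to 422000 against 163500 to 342800) and of 6 crypt and cycling markers 2 (6062 to 10120 against 4164 to 7349). The called crypt and cycling markers were *Top2a* and *Ccnb1*, and *Mki67* contributes most to that sum. *Lgr5* (0.30) and *Ascl2* (0.10), 2 of the 6, had the opposite sign without passing the adjusted p. Of 8 enterocyte markers 1 was called higher and 1 lower. Their summed signal, to which bright markers such as *Fabp2* contribute most, was 679500 to 861300 against 673700 to 829100. Of 6 tested adipocyte markers 0 were called, and *Adipoq* was well above background on 1 of 18 arrays. The summed signal of the 6, to which *Cidec* contributes most, was 5546 to 12060 in chow mice and 10480 to 18960 in floxed mice on WD. Their median log2 difference was -0.01, with 2 of the 6 positive. *Cidec*, the brightest of them, was higher with the adjusted p alone (0.53, limma adjusted p = 0.0473). Of 16 clock genes 10 were called higher and 2 lower, *Dbp* by 3.51 and *Arntl* by -1.31, although all mice were killed at the same ZT. The part of these shifts in the differences of *Fasn*, *Acacb*, *Acly* and *Elovl5* was not tested.

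The second comparison asked whether the label iPGC1a-/- went with a change on WD. None of the 9 genes was called, nor passed the adjusted p alone, where 0.135% and 0.227% of all gene names did (29 and 49 of them). At an unadjusted limma p of 0.05, 2 genes passed, *Elovl6* and *Fads2*, both lower in iPGC1a-/- mice, against 9.29% of all gene names. In 7 of 9 genes the iPGC1a-/- mean was the lower one, while among all gene names it was the higher one in 11183 of 21542. The members' median difference was -0.08, that of all gene names being 0.006. No gene separated the groups without overlap, which 0.961% of all gene names did. These arrays of floxed mice on WD also served in the diet comparison, so both columns of differences share them.

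*Elovl6* showed the widest difference by genotype. Its log2 signals were 9.80, 10.60 and 11.23 (lowest, median, highest) in iPGC1a-/- mice and 10.55, 11.21 and 11.69 in floxed mice on WD. The difference was -0.52 (SE 0.21, limma adjusted p = 0.467; exact permutation p = 0.0736), and within the slides it was -0.29, -1.19 and -0.08, so slide 2 carried most of it. *Fads2* had 8.76, 8.87 and 9.09 against 8.97, 9.15 and 9.34, a narrow overlap. It differed by -0.26 (SE 0.12, adjusted p = 0.495; exact permutation p = 0.0108), but its 4 other tested probes differed by -0.12 to 0.05. *Acacb* differed by -0.37 between genotypes (95% interval -0.90 to 0.16, adjusted p = 0.652).

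The synthesis enzymes proper were close between genotypes. *Fasn* averaged 11.78 ± 0.20 in iPGC1a-/- mice and 11.86 ± 0.31 in floxed mice on WD (SD, n = 6), a difference of -0.08 (95% interval -0.38 to 0.22). *Acly* differed by -0.03 (-0.24 to 0.18), *Acaca* by -0.04 (-0.29 to 0.20) and *Elovl5* by 0.03 (-0.20 to 0.25). *Acss2* was at -0.20 (-0.45 to 0.04) and *Fads1* at 0.12 (-0.17 to 0.40). A p above the threshold does not show equal levels, and these intervals, not adjusted for the number of genes, bound the differences that remain possible. In the lists around the pathway, 1 gene was called by genotype: *Scd1* was 1.16 higher in iPGC1a-/- mice (adjusted p = 0.045), a call at the edge of the threshold that 6 of 10 other fits and 5 of 18 fits without 1 array kept.

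Members also varied between mice of the same group. After subtraction of group means, *Acly*, *Acss2*, *Acaca*, *Fasn* and *Fads2* varied together over the 18 arrays, with r of 0.72 to 0.88 in their 10 pairs. These 5 are the members whose r exceeded 0.7 in every pair on these same arrays. The range therefore follows from that choice and is a description, not a test of a group. The closest pair was *Fasn* and *Acaca* (r = 0.88), although only *Fasn* differed by diet. Among 14988 named genes, 5.45% had an r over 0.7 with the deviations of *Fasn* and 2.84% with those of *Acaca*. Floxed chow replicates 1 and 4 had the highest mean deviation of these 5 genes in their group (0.24 and 0.41), and floxed chow replicate 6 the lowest (-0.30). *Elovl5* (0.43 to 0.62) and *Acacb* (0.31 to 0.56) followed this group more loosely, *Fads1* had 0.29 to 0.54, and *Elovl6* stood apart at 0.03 to 0.32. *Elovl5* and *Elovl6* deviated in opposite directions (r = -0.48). The 18 points share slides and RNA preparations. The mean deviation of the 5 genes had an r of 0.76 with that of the summed crypt and cycling markers and -0.55 with the circadian clock genes. Its r was 0.46 with the B cell, 0.35 with the T cell, 0.28 with the goblet and -0.25 with the enterocyte markers. With array measures it was 0.31 for the log2 median signal before scaling and 0.17 for the share of spots well above background. The part of these measures was not tested.

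**Figure D5:**
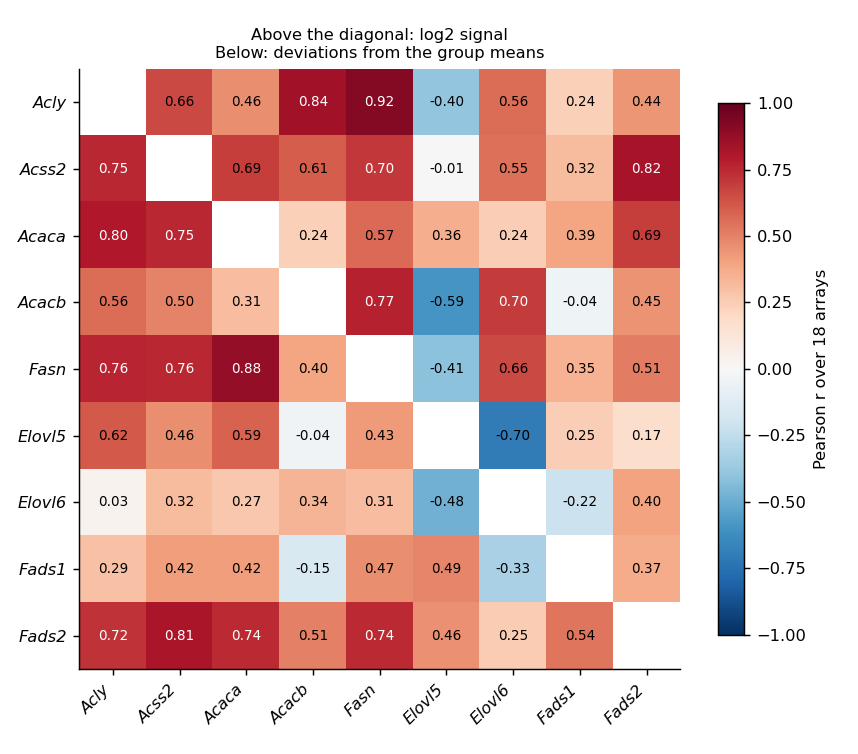
Pearson r between the 9 tested genes over the 18 arrays. Cells above the diagonal use log2 signal, which includes the differences between groups, and cells below use deviations from group means. *Fasn* and *Acly* reach 0.92 above the diagonal, and *Acly*, *Acss2*, *Acaca*, *Fasn* and *Fads2* have 0.72 or more in every pair below it.

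On the log2 signal itself, group differences included, *Fasn* was most like *Thyn1* (r = 0.96, rho = 0.98), *Tcirg1* and *Prmt7* among 14989 named genes over the 18 arrays. *Acly* was most like *Cdkn3* (r = 0.96), *Rpn1* and *Pir*, and *Acacb* like *Sun2* (r = 0.95), *Pard6g* and *Egr2*. *Elovl6* was most like *Vps36* (r = 0.97), *Pus7* and *Ino80d*, and *Elovl5* like *Abcb6* (r = 0.91), *Cisd3* and *Aldh1b1*. For the others the closest genes were *Abcb8* (r = 0.92 with *Acss2*), *Mri1* (r = 0.90 with *Fads1*), *Hps1* (r = 0.86 with *Acaca*) and *Pigk* (r = 0.85 with *Fads2*). No member was among the 3 genes most like another member.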

How the data were processed

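RNA of ileum cells of 18 mice was hybridised by the authors on 1-colour Agilent arrays, 6 per group, and the groups came from the sample labels. The authors deposited scanner intensity values from Agilent Feature Extraction 10.10.1.1, not normalized, and a table of processed log2 values, used here as an alternative. Their correction for washing bath and labelling serial could not be repeated, since the labels used here do not name these batches.

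Control spots were dropped, as were 46 to 153 outlier spots of 59305 on an array, and replicate spots were averaged. The filter kept 32726 of 56605 probes, those above background as flagged by the scanner in 5 or more of the 6 arrays of some group. Log2 median signal was normalised with an own version of qsmooth (window 0.05) and tested with limma 3.58.1 in R 4.3.3 in 1 model of 3 groups, with Benjamini-Hochberg adjustment over these probes. The code was tested on simulated data. Log2 differences of probes near background understate the change, and the number of arrays limits the precision (median SE by diet 0.104 over the tested probes). Nothing says that the mice of a group came from separate litters, so whether they are independent, as the p-values assume, is not known.

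Members, gene lists and tests were chosen with earlier results of these data known. All members were named, and of the lists called genes and 7 regulators could be, with an item that is not reported here left out. Gene names are those of the array, matched to RefSeq (GRCm38.p6) where older; sequences and starts are RefSeq's. Alternatives changed the normalization, the background correction, the dim-probe filter, the blocks, the arrays, the variance model and the probe of a gene. Further software was pandas 2.3.3 and matplotlib 3.10.9 under Python 3.11.15.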

Additional observations from a re-analysis of the deposited data

How the results depend on the processing

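Calls among the 9 genes by genotype stayed at 0 under every alternative, and the 2 calls by diet (*Fasn*, *Acacb*) were both kept under 11 of 14 alternatives other than leaving out an array. With scaling to the 75th percentile 1 was called, for median and for processed signal alike, with *Fasn* just under the fold. With the mean of all probes of a gene 1 was called, *Fasn*, and with no fold asked for 4 were. Over all genes the threshold without a fold gave 5292 calls by diet and 49 by genotype, in place of 1815 and 29. Leaving out 1 array gave 1 to 2 members by diet (1 without floxed WD replicate 3 or floxed chow replicate 4) and 19 to 40 genes by genotype, the fewest without floxed WD replicate 1, 2 or 4 or iPGC1a-/- WD replicate 3, and the most without floxed WD replicate 5. Some signs turned, in no case for a called difference. That of *Acaca* by diet was -0.0062 with only the compared groups and -0.015 with array weights, in place of 0.0041, and that of *Acss2* by genotype was 0.022 with all probes averaged, in place of -0.20. Leaving out 1 array, *Acaca* ranged from -0.081 to 0.092 by diet and from -0.096 to 0.011 by genotype, *Acly* by genotype from -0.085 to 0.0045, *Elovl5* by genotype from -0.024 to 0.081 and *Fasn* by genotype from -0.16 to 0.012. The cause was not tested in any of these cases. Whether replicate numbers pair the mice was not settled. Deviations of same-numbered arrays correlated at -0.131 to 0.284 by diet and at -0.188 to 0.332 by genotype. These r exceeded 0.1 in 4 of 6 pairs by diet and in 3 of 6 by genotype, and differently numbered arrays were not compared. With the replicate block 2 members and 1828 genes were called by diet and 0 members and 25 genes by genotype. Within slides, 13 of 54 differences moved by more than 1 SD of the mice.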

Other observations

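The desaturase genes *Fads1* and *Fads2* lie beside each other on chromosome 19, and their neighbours were read as well. Of 6 neighbouring genes 0 were called by diet or genotype, and with the adjusted p alone 3 were lower on WD: *Fen1*, a DNA repair nuclease (-0.56, adjusted p = 0.0186), *Fads3* (-0.42, adjusted p = 0.0134) and *Tmem258* (-0.29, adjusted p = 0.00719). *Fads1* and *Fads2*, between them, were not lower by this measure.

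Mitochondrial fatty acid synthesis, a separate pathway that makes the lipoic acid precursor, had no call by diet, while with the adjusted p alone *Mcat* (-0.48) and *Mecr* (-0.37) were lower and *Hsd17b8* (0.32) and *Acsf3* (0.26) higher. Among 9 tested fasting and PPARa targets, 3 were called higher and 0 lower on WD. *Pdk4*, which restrains pyruvate oxidation, rose by 2.27, the fatty acid hydroxylase *Cyp4a10* by 1.59 and the lipid droplet protein *Plin2* by 0.65. The carnitine palmitoyltransferase *Cpt1a*, the target of malonyl-CoA, was at -0.08 (adjusted p = 0.747).

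Some markers not described above were called by diet, where 5.2% of all gene names were called lower and 3.22% higher. Of 5 Paneth markers *Mmp7* was lower (-0.69), of 5 enteroendocrine markers *Chga* (-0.80), of 3 tuft markers *Trpm5* (-0.63), of 3 myeloid markers *Itgax* (-0.82) and of 3 villus tip markers *Nt5e* and *Slc28a2* (-0.85 and -0.68). The other Paneth and tuft markers had the opposite sign, 4 of 5 and 2 of 3 being positive. List medians were 0.003 for Paneth, 0.40 for tuft, -0.09 for enteroendocrine, -0.08 for myeloid and -0.68 for villus tip markers. Of 8 enterocyte markers *Alpi* was higher (0.90) and *Slc10a2* lower (-1.07), and of 4 stromal markers 0 were called. By genotype 0 of these were called.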
